A study of Mus musculus with 16 samples.

Results

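The 29 genes described here encode enzymes and regulators of sterol and fatty acid synthesis, and their RNA was measured in the somatodendritic and axonal compartments of cultured mouse motoneurons. The members were a named list, taken by gene symbol: 19 enzymes from acetoacetyl-CoA to cholesterol and the isoprenoids, 4 genes of SREBP control, 1 sterol carrier and 5 genes of fatty acid synthesis. All 29 were found among the 46320 genes of the deposited count table, and all 29 passed the filter on low counts in each fit. The lowest count of a member in any library was 528.

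The groups were +/+ somatodendritic, *Hnrnpr*-/- somatodendritic, +/+ axonal and *Hnrnpr*-/- axonal, with 4 libraries in each and 16 in all. *Hnrnpr* encodes hnRNP R, an RNA-binding protein, and the *Hnrnpr*-/- mice carry a CRISPR/Cas9 deletion at the start of the gene. In all 4 groups, motoneurons were enriched by panning for p75NTR from lumbar spinal cords of mouse embryos at day 13 and grown in microfluidic chambers. CNTF was given to both compartments and BDNF to the axonal compartment alone, so the compartments differ in this factor as well as in cell part. Axonal cDNA was also amplified with more PCR cycles and a larger reaction volume than somatodendritic cDNA. Compartment, BDNF and amplification cannot be told apart in these libraries. The titles give a replicate number from 1 to 4 in each group, and the labels do not say which animals or cultures were pooled. The paper describes these data as coming from 4 biological replicates, without saying how animals or cultures were divided among them. The p values therefore measure the spread between these libraries, which may be partly technical.

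Total counts per library ranged from 22024636 to 34863923. *Hnrnpr* had 3922 to 15608 counts in the 8 +/+ libraries and 13 to 38 in the 8 *Hnrnpr*-/- libraries. Levels below are in CPM, that is, counts divided by the library total, adjusted by its TMM factor, and brought to a common scale. The summed CPM of 6 neuronal markers in the somatodendritic compartment was 5733 to 7224 for +/+ and 4594 to 7575 for *Hnrnpr*-/- motoneurons, and in the axonal compartment 475 to 2504 and 319 to 3882. The summed CPM of 8 astrocyte and radial glia markers was 1360 to 2099 (+/+) and 1575 to 2693 (*Hnrnpr*-/-) in the somatodendritic libraries against 2526 to 5654 and 2426 to 4700 in the axonal ones. Of these 8, 3 were called higher in +/+ and 1 in *Hnrnpr*-/- axons, and without *Fabp7*, which had the highest sum over the 16 libraries, the totals of the other 7 overlapped between compartments, at 947 to 1616 and 1294 to 2295 CPM against 1057 to 2934 and 1027 to 2623 CPM. The 7 motoneuron markers summed to 12.9 to 29.2 CPM in +/+ somatodendritic libraries, and *Mnx1*, a defining motoneuron gene, had a count in 1 library of 16. In these bulk libraries, fewer cells of a type and less RNA per cell cannot be told apart.

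Cholesterol is built from acetyl-CoA by way of HMG-CoA, mevalonate, isoprenoid diphosphates, squalene and lanosterol. Fatty acids are built from the same acetyl-CoA, which ATP citrate lyase makes in the cytosol, by acetyl-CoA carboxylase and fatty acid synthase. Both routes are controlled by the SREBP transcription factors, which Scap escorts from the endoplasmic reticulum when sterols are low and which the Insig proteins hold back. Growing neurons need both products for membrane, and the enzymes act mainly in the cytosol and the endoplasmic reticulum.

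SREBPs bind sterol regulatory elements and commonly act together with the factors NF-Y, which binds CCAAT, and Sp1, which binds GC boxes. Promoters of 300 bases, from 250 before to 50 after the transcription start, were taken from RefSeq (table on GRCm38.p6) and matched by gene identifier for 24 of 29 members. *Fdps*, *Fdft1*, *Sqle*, *Stard4* and *Scd2* had no entry. The 4 promoters below are shown because *Hmgcs1* is the member with a sterol regulatory element of the searched form, *Msmo1* was higher in axons in both genotypes, and *Acly* and *Fasn* had the largest decreases. Capitals mark CCAAT or its reverse complement ATTGG and, in *Hmgcs1* alone, also the match to TCACNCCAC. Each sequence had 1 exact match in GRCm39, at chr13:120151637-120151936 on the plus strand for *Hmgcs1*, and on the minus strand at chr8:65186563-65186862 for *Msmo1*, chr11:100418777-100419076 for *Acly* and chr11:120715324-120715623 for *Fasn*. The start used for these windows is the first base of the gene in the count table's annotation for *Hmgcs1* and *Acly*, but lies 210 bases inside the gene for *Msmo1* and 619 for *Fasn*, so that the *Fasn* window falls wholly within the annotated gene.
Hmgcs1: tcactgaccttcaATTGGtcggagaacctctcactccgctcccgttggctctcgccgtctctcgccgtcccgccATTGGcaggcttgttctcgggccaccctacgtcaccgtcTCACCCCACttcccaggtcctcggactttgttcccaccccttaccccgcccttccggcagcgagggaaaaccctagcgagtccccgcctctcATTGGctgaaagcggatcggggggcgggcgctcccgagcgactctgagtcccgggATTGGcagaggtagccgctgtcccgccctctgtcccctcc
Msmo1: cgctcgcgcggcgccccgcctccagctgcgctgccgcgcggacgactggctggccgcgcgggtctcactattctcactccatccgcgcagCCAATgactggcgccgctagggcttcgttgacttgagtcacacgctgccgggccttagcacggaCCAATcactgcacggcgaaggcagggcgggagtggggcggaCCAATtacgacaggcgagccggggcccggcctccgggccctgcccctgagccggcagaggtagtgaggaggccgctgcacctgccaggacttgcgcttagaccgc
Acly: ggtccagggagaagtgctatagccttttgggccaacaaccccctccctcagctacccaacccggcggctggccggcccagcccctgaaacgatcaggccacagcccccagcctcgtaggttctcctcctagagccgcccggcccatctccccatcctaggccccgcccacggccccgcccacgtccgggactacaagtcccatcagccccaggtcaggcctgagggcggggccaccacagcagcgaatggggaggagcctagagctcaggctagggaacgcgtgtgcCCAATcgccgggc
Fasn: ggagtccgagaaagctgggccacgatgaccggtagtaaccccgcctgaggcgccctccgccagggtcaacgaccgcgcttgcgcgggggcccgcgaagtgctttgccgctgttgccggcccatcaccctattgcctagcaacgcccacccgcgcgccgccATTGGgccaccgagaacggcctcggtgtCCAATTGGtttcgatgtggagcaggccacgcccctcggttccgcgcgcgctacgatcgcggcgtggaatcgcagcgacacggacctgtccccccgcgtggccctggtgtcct

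Counting bases from 1 at the start and from -1 before it, *Hmgcs1* held TCACCCCAC at -137, in the direction of the gene, and ATTGG at -237, -176, -45 and 11. *Msmo1*, the sterol-C4-methyl oxidase gene, held CCAAT at -160, -96 and -55. *Acly* held CCAAT at 38, after the start. *Fasn* held ATTGG at -90 and an overlapping pair, CCAAT at -62 and ATTGG at -59. The 24 members had 30 windows, 3 each for *Dhcr7* and *Srebf1* and 2 each for *Pmvk* and *Scap*. A gene, member or not, was counted if any of its windows held the motif. On either strand, CCAAT was found in 20 of the 24 members, 83.3%, against 41.1% of 27025 genes in the table and 42.2% of the 14120 of them that were tested for expression. GGGCGG, the GC box, was found in 19 of 24, 79.2%, against 38.2% of all and 61.6% of tested genes. CACGTG, an E-box that reads the same on both strands, was found in 5 of 24 (*Hsd17b7*, *Sc5d*, *Dhcr7*, *Scap* and *Insig1*), 20.8%, against 8.09% of all and 10.7% of tested genes. TCACNCCAC was found in 1 of 24, 4.17%, against 1.44% of all and 1.41% of tested genes. These letters describe the windows, which hold only part of each promoter, and no binding was measured.

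The levels of the members, per kilobase of exon, lay mostly high among all genes tested. *Scd2*, a stearoyl-CoA desaturase, led in +/+ somatodendritic libraries with 561 CPM per kilobase, followed by *Fdps*, farnesyl diphosphate synthase, with 380 and *Hmgcs1*, HMG-CoA synthase, with 363. In +/+ axonal libraries *Fdps* came first and *Scd2* second. *Acaca*, acetyl-CoA carboxylase, was the lowest member per kilobase in all 4 groups, with 7.04 CPM per kilobase in +/+ somatodendritic libraries, the 63.1st percentile of all genes tested. *Fasn*, fatty acid synthase, moved from the 98.1st percentile in +/+ somatodendritic to the 85.5th in +/+ axonal libraries.

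The first question was which members differ in level between the compartments. In axons all 5 fatty acid synthesis genes were lower in both genotypes, whereas the 19 sterol and isoprenoid enzymes had medians near 0. Of the 29 members, 9 were lower and 2 higher in +/+ axons at an adjusted p under 0.05 in edgeR's quasi-likelihood test, against a background of 27.4% of 19964 genes lower and 30.1% higher. For *Hnrnpr*-/- axons, 8 members were lower and 3 higher, against 26.8% and 27.5% of all genes. With library totals in place of TMM factors, 5 members were higher and 7 lower in each genotype, against 33.8% and 23.6% of all genes in +/+ and 30.2% and 23.5% in *Hnrnpr*-/- motoneurons. The shares of members that were lower, 9 and 8 of 29, are near these backgrounds, and the higher members were fewer than the background share. By libraries that do not overlap between compartments, 8 members were lower and 2 higher in +/+ motoneurons (27.1% and 25.1% of all genes), and 7 lower and 3 higher in *Hnrnpr*-/- motoneurons (26.4% and 25%). The median log2 fold change of the members was -0.24 in +/+ and -0.13 in *Hnrnpr*-/- motoneurons, and that of all genes 0.07 and 0.00. The members' median moved with single libraries. In +/+ motoneurons it stayed below 0 whichever library was left out, from -0.28 without axonal replicate 2 to -0.08 without axonal replicate 4. It was -0.14 without somatodendritic replicate 2 and -0.13 without somatodendritic replicate 3. In *Hnrnpr*-/- motoneurons it turned to 0.06 without somatodendritic replicate 1, lay close to 0 without axonal replicate 4, and was -0.21 without somatodendritic replicate 4 and -0.23 without axonal replicate 2. With library totals it was -0.08 and -0.01.

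**Figure D1:**
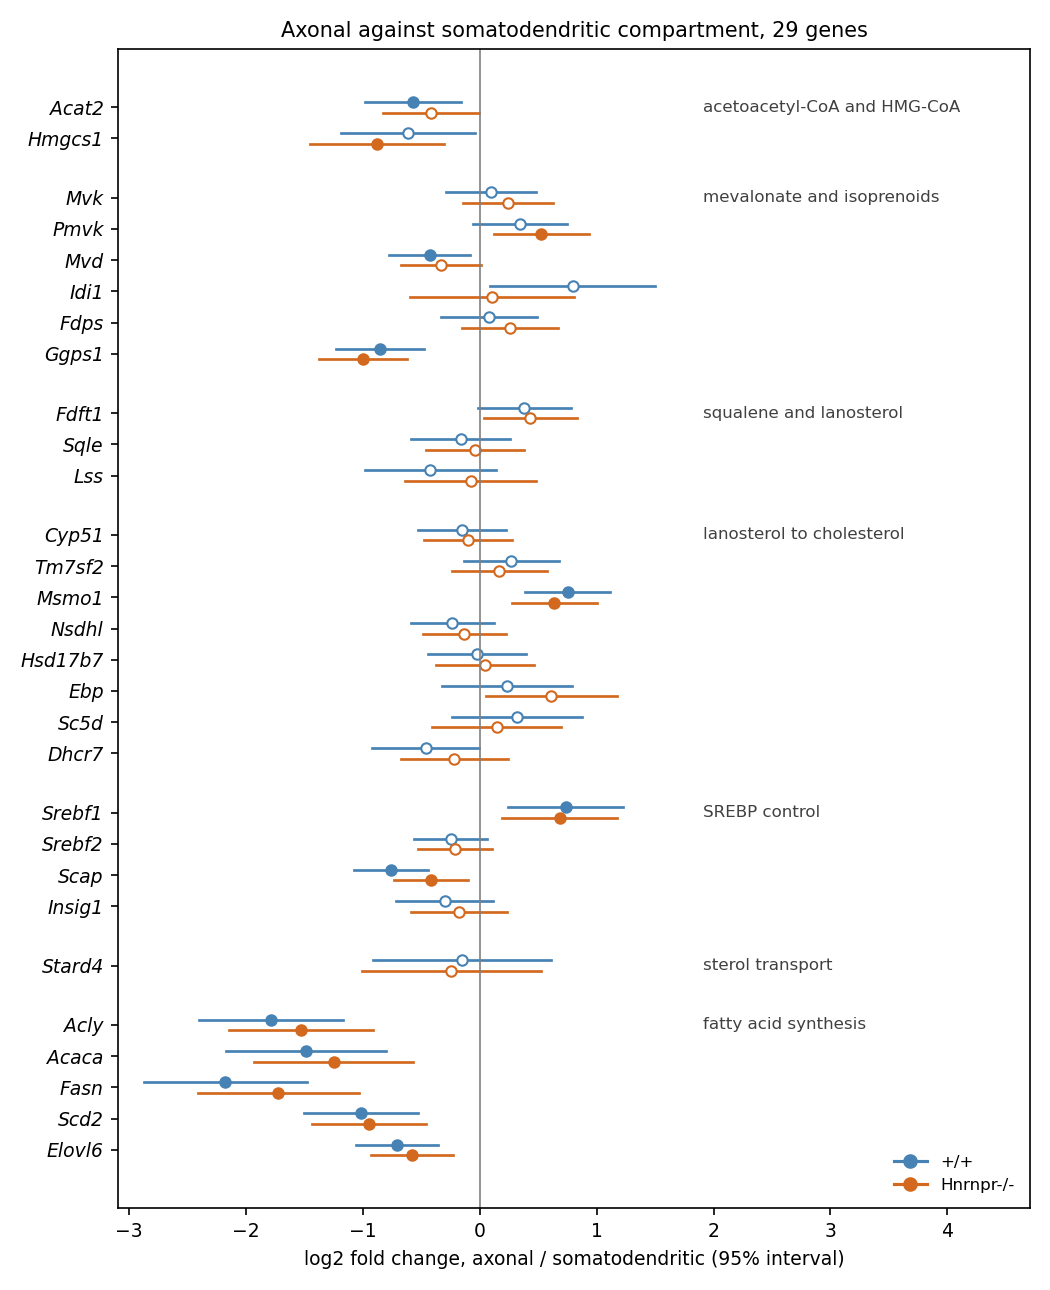
Log2 fold change of each of the 29 genes between axonal and somatodendritic libraries (x axis), by step of the pathway (y axis), in +/+ and *Hnrnpr*-/- motoneurons, with 4 libraries per group. Lines are 95% intervals and filled points have an adjusted p under 0.05. The 5 fatty acid genes lie left of 0 in both genotypes, from -2.18 to -0.58, and the sterol enzymes lie on both sides.

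*Fasn*, which joins malonyl units into palmitate, had the largest difference. Its level in +/+ somatodendritic libraries was 1556, 1618, 1264 and 814 CPM, and in +/+ axonal libraries 301, 261, 332 and 282 CPM. The levels in *Hnrnpr*-/- motoneurons were 1954, 558, 907 and 787 CPM in the somatodendritic and 359, 375, 333 and 229 CPM in the axonal libraries. No axonal library of a genotype reached its lowest somatodendritic library. The log2 fold change was -2.18 (SE 0.33, adjusted p 0.000121) in +/+, or 0.221-fold, and -1.72 (SE 0.32, adjusted p 0.00061) in *Hnrnpr*-/- motoneurons. The gene lies at chr11:120696784-120715992 in GRCm39, with 10434 bases of exon.

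*Acly*, ATP citrate lyase (chr11:100367178-100418826), stood at 1734, 1661.8, 1784 and 1133 CPM in +/+ somatodendritic and at 641, 381, 384 and 455 CPM in +/+ axonal libraries. The *Hnrnpr*-/- libraries had 2353, 1194, 1611 and 926 CPM in the somatodendritic and 716, 593, 482 and 359 CPM in the axonal compartment. The compartments did not overlap in either genotype, with log2 fold changes of -1.78 (SE 0.29, adjusted p 0.000202) and -1.53 (SE 0.29, adjusted p 0.000634).

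*Acaca*, which makes malonyl-CoA (chr11:84020461-84292477), had 82.3, 91.8, 68.4 and 58.3 CPM in +/+ somatodendritic and 18.4, 38.3, 28.7 and 22.9 CPM in +/+ axonal libraries. In the *Hnrnpr*-/- libraries it had 114, 36.8, 52.2 and 41.1 CPM in the somatodendritic and 23.1, 29.1, 27.9 and 24.5 CPM in the axonal compartment, so that the second somatodendritic library was the closest to the axonal ones. Its log2 fold changes were -1.48 (SE 0.32, adjusted p 0.00138) and -1.25 (SE 0.32, adjusted p 0.00444). Without *Hnrnpr*-/- somatodendritic replicate 1, the library at 114 CPM, the latter was -0.73 and still passed the threshold. *Acaca* overlaps *Tada2a* on the other strand, whose mean count, not adjusted for library total, was 595 in somatodendritic and 1026 in axonal libraries. The cDNA kit does not mark strand, so reads from the shared part cannot be told apart.

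*Scd2*, which puts a double bond into stearate (chr19:44282115-44295303), averaged 3060 ± 553 CPM (SD, n = 4) in +/+ somatodendritic and 1537 ± 340 in +/+ axonal libraries. The averages in *Hnrnpr*-/- motoneurons were 3227 ± 711 and 1712 ± 516 CPM (SD, n = 4). The log2 fold changes were -1.01 (SE 0.23, adjusted p 0.00186) and -0.95 (SE 0.23, adjusted p 0.00321). *Elovl6*, which lengthens palmitate (chr3:129326035-129432144), had the smallest difference of the group, from 136 ± 11.5 to 84.6 ± 11.3 CPM in +/+ and from 132 ± 18.6 to 90.7 ± 19.3 CPM in *Hnrnpr*-/- motoneurons (SD, n = 4). Its log2 fold changes were -0.71 (SE 0.16, adjusted p 0.0023) and -0.58 (SE 0.16, adjusted p 0.00868). The call in *Hnrnpr*-/- motoneurons was lost without somatodendritic replicate 1 (adjusted p 0.0525). Both genes were without overlap between the compartments in each genotype.

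**Figure D2:**
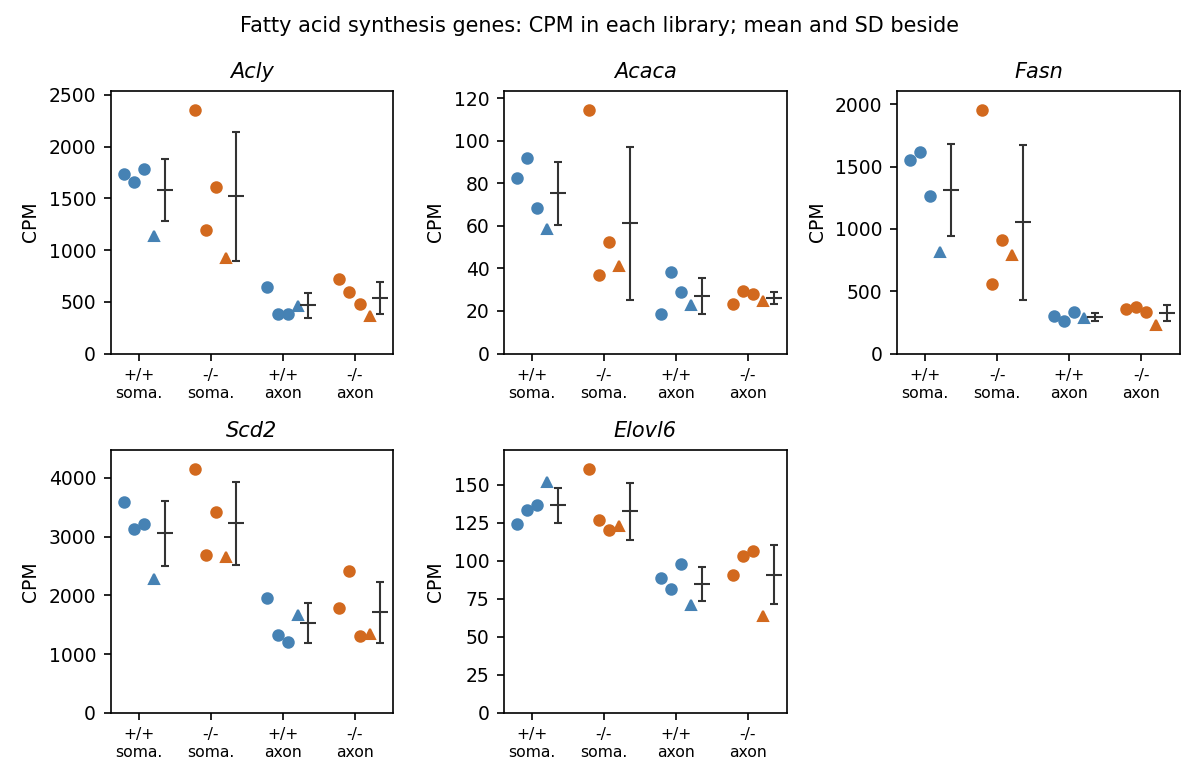
Level in CPM (y axis) of the 5 fatty acid synthesis genes in each library of the 4 groups (x axis, soma. for somatodendritic). Points are libraries, triangles those numbered 4, and the line beside each group is the mean with its SD. For every gene the axonal libraries of a genotype lie below all of its somatodendritic libraries, and *Hnrnpr*-/- somatodendritic replicate 1 is the highest library.

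The 5 fatty acid genes together took 0.435% to 0.685% of all counts in +/+ somatodendritic libraries and 0.209% to 0.321% in +/+ axonal libraries. The ranges in *Hnrnpr*-/- motoneurons were 0.453% to 0.774% and 0.218% to 0.374%. The 19 sterol and isoprenoid enzymes took 0.543% to 0.566% in +/+ somatodendritic libraries and a wider 0.414% to 0.731% in +/+ axonal libraries. In *Hnrnpr*-/- motoneurons these enzymes took 0.493% to 0.604% and 0.406% to 0.652%, so the compartments overlapped for the sterol enzymes and not for the fatty acid genes.

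Among the 19 sterol and isoprenoid enzymes, 3 were lower and 1 higher in +/+ axons, and 2 lower and 2 higher in *Hnrnpr*-/- axons. Each count is a smaller share of the 19 than the 27.4% of all genes lower and 30.1% higher in +/+, and the 26.8% and 27.5% in *Hnrnpr*-/- axons. Their median log2 fold change was -0.02 and 0.05. At the entry of the pathway, *Acat2*, acetoacetyl-CoA thiolase, went from 472 ± 27.2 to 322 ± 67.9 CPM in +/+ motoneurons (SD, n = 4). Its log2 fold change was -0.57 (SE 0.19, adjusted p 0.0197) in +/+ and -0.42 (SE 0.19, adjusted p 0.0771) in *Hnrnpr*-/- motoneurons. The +/+ call was lost without axonal replicate 4 (adjusted p 0.0878) and without somatodendritic replicate 2 (adjusted p 0.0727), and with library totals (adjusted p 0.0787).

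*Hmgcs1* (chr13:120151887-120169796) stood at 1511, 1661.8, 1497 and 1443 CPM in +/+ somatodendritic and at 1056, 1605, 590 and 788 CPM in +/+ axonal libraries. The second +/+ axonal library fell among the somatodendritic ones. The *Hnrnpr*-/- libraries had 1949, 1585, 1491 and 1396 CPM in the somatodendritic and 976, 1242, 729 and 621 CPM in the axonal compartment, without overlap. The log2 fold change was -0.61 (SE 0.27, adjusted p 0.0643) in +/+ and -0.88 (SE 0.27, adjusted p 0.013) in *Hnrnpr*-/- motoneurons. The +/+ value ran from -0.95 to -0.38 over the alternatives, and was -0.95 (adjusted p 0.0041) without axonal replicate 2. With the replicate number within each genotype as a block, which pairs the same-numbered libraries of both compartments, the +/+ difference passed the threshold (log2 fold change -0.71, adjusted p 0.0224). The *Hnrnpr*-/- call was lost without somatodendritic replicate 1 (adjusted p 0.0524) and without the libraries numbered 4 (adjusted p 0.077).

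In the mevalonate and isoprenoid steps, *Ggps1*, geranylgeranyl diphosphate synthase (chr13:14224375-14238319), was lower in axons of both genotypes. It had 87.1, 102, 107 and 90.5 CPM in +/+ somatodendritic and 54.7, 60.5, 46.9 and 54.4 CPM in +/+ axonal libraries. The *Hnrnpr*-/- libraries had 119, 113, 107 and 78.3 CPM in the somatodendritic and 70.8, 53.0, 44.6 and 44.4 CPM in the axonal compartment. The compartments did not overlap, with log2 fold changes of -0.85 (SE 0.18, adjusted p 0.00105) and -1.002 (SE 0.18, adjusted p 0.000426).

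*Mvd*, mevalonate diphosphate decarboxylase, was lower in +/+ axons (-0.43, SE 0.16, adjusted p 0.0335), a call that was lost without any of 5 single libraries, all but somatodendritic replicate 4 and axonal replicates 1 and 2 (adjusted p 0.0831 to 0.158), and under 6 other settings (adjusted p 0.0537 to 0.150). *Pmvk*, phosphomevalonate kinase, was higher in *Hnrnpr*-/- axons (0.53, SE 0.19, adjusted p 0.0286), and this call was lost without any of 4 single libraries, somatodendritic replicates 3 and 4 and axonal replicates 1 and 2 (adjusted p 0.0565 to 0.103). *Fdps* and *Mvk*, mevalonate kinase, had log2 fold changes of 0.08 to 0.26 that did not pass the test. *Idi1*, isopentenyl diphosphate isomerase, had 147, 462, 172 and 121 CPM in +/+ axonal libraries and 101 to 147 CPM in +/+ somatodendritic libraries. Replicate 2 alone held its mean up, and the log2 fold change of 0.80 (SE 0.33, adjusted p 0.0514) was 0.15 without that library. With replicate 2 in the fit, the call was gained under 5 of 12 other settings and 3 of 8 omissions of a single library, with values up to 1.06.

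In the squalene and lanosterol steps no member passed the test. *Fdft1*, squalene synthase, had log2 fold changes of 0.38 (SE 0.19) and 0.43 (SE 0.19), with adjusted p 0.0937 and 0.0617. The values were 0.64 in both genotypes without the libraries numbered 4 (adjusted p 0.00484 and 0.00644). *Fdft1* overlaps *Ctsb* on the other strand, whose mean count was 18116 in somatodendritic and 27228 in axonal libraries, above the 7162 and 12756 of *Fdft1* itself. Both mean counts, which are not adjusted for library total, were larger in the axonal libraries. Median totals were also larger there, at 31045774 (+/+) and 31381030 (*Hnrnpr*-/-) against 24968892 and 24250215 in somatodendritic libraries. *Sqle*, squalene epoxidase, had -0.16 and -0.04, and *Lss*, lanosterol synthase, had -0.42 and -0.08.

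Among the 8 enzymes from lanosterol to cholesterol, *Msmo1* (chr8:65171157-65186822) was higher in axons of both genotypes. It stood at 190, 181, 223 and 200 CPM in +/+ somatodendritic and at 295, 371, 390 and 297 CPM in +/+ axonal libraries. The *Hnrnpr*-/- libraries had 209, 208, 229 and 161 CPM in the somatodendritic and 279, 300, 424 and 283 CPM in the axonal compartment. All axonal libraries lay above all somatodendritic ones in each genotype, and the log2 fold changes were 0.75 (SE 0.17, adjusted p 0.00195) and 0.64 (SE 0.17, adjusted p 0.00597). The other 7 did not pass the test. *Ebp*, the sterol isomerase, had 0.61 (SE 0.26, adjusted p 0.0592) in *Hnrnpr*-/- motoneurons, where its axonal libraries, at 34.1 to 64.8 CPM, did not overlap the somatodendritic ones, at 24.8 to 32.3 CPM. *Dhcr7*, which makes cholesterol from its last precursor, had -0.46 (SE 0.22, adjusted p 0.0775) in +/+ motoneurons. This value ran from -0.58 to -0.24 over the alternatives, and passed the threshold without axonal replicate 1 (adjusted p 0.0477). *Cyp51*, *Tm7sf2*, *Nsdhl*, *Hsd17b7* and *Sc5d*, enzymes of the demethylation, reduction and desaturation steps, had -0.24 to 0.32. The upper end was that of *Sc5d* in +/+ motoneurons, which was -0.07 without axonal replicate 2, at 357.5 CPM against at most 189.2 in the other axonal libraries.

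Of the 4 genes of SREBP control, *Srebf1* was higher and *Scap* lower in axons of both genotypes. *Srebf1*, which encodes the SREBP that mainly drives fatty acid genes (chr11:60089910-60113407), had 117, 109, 109 and 46.1 CPM in +/+ somatodendritic and 175, 133, 163 and 172 CPM in +/+ axonal libraries. In *Hnrnpr*-/- motoneurons it had 103, 97.7, 135 and 126 CPM in the somatodendritic and 200, 213, 176 and 171 CPM in the axonal libraries. Axonal and somatodendritic libraries did not overlap, and the log2 fold changes were 0.74 (SE 0.23, adjusted p 0.0139) and 0.68 (SE 0.23, adjusted p 0.0212). Limma's voom with group weights gave adjusted p 0.0707 and 0.106, and the *Hnrnpr*-/- call was also lost without axonal replicate 2 (adjusted p 0.0532). *Srebf1* overlaps *Rai1* on the other strand, whose mean count was 1832 in somatodendritic and 1061 in axonal libraries, so that the partner went the other way.

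*Scap* (chr9:110162356-110214017) had 190, 195, 178 and 134 CPM in +/+ somatodendritic and 118, 92.1, 108 and 97.7 CPM in +/+ axonal libraries, without overlap. The *Hnrnpr*-/- libraries had 190, 147, 167 and 172 CPM in the somatodendritic and 114, 156, 132 and 115 CPM in the axonal compartment, with axonal replicate 2 above somatodendritic replicate 2. The log2 fold change was -0.76 (SE 0.15, adjusted p 0.000726) in +/+ and -0.42 (SE 0.15, adjusted p 0.026) in *Hnrnpr*-/- motoneurons. The latter call was lost with the number within each genotype as a block (adjusted p 0.0524) and without any of 4 single libraries, somatodendritic replicate 1 and axonal replicates 1, 3 and 4 (adjusted p 0.0578 to 0.119). It was also lost under 5 other settings (adjusted p 0.0577 to 0.152). *Srebf2*, which encodes the SREBP that mainly drives sterol genes, had -0.25 and -0.21, and *Insig1*, the sterol-dependent anchor, -0.30 and -0.18. *Stard4*, a soluble sterol carrier, had -0.15 and -0.24. None of these passed the test.

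**Figure D3:**
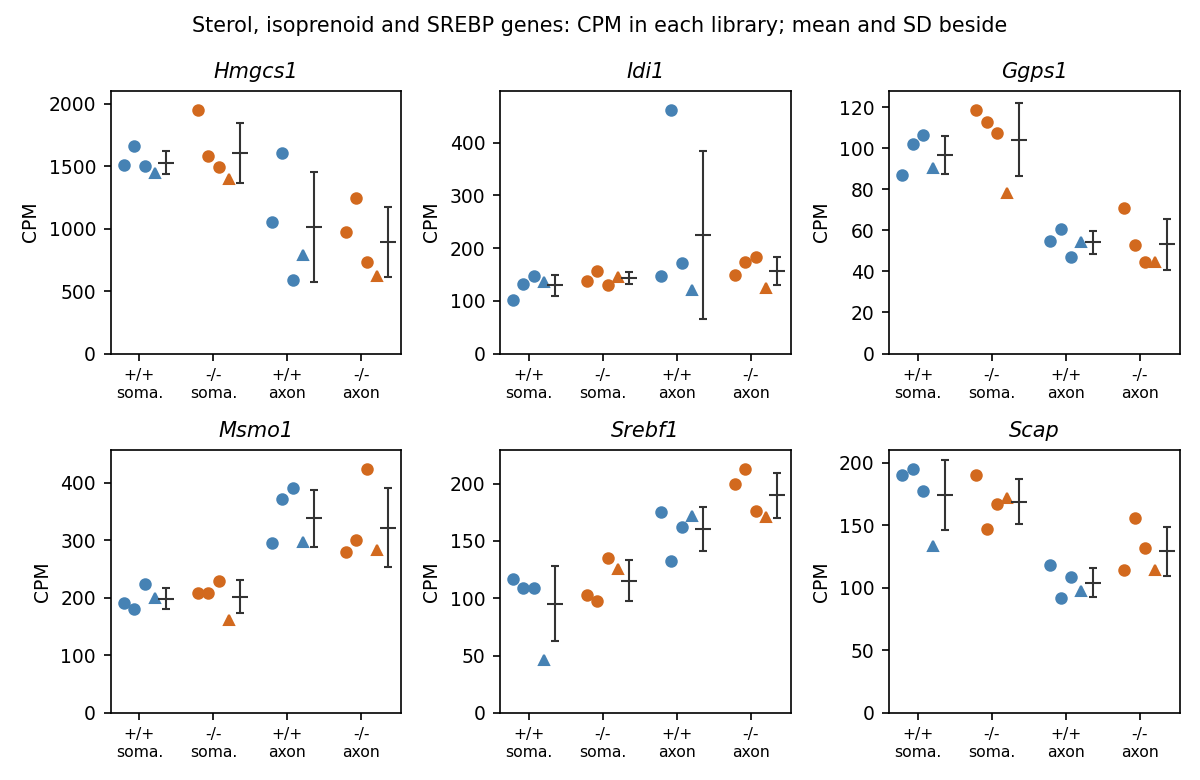
Level in CPM (y axis) of 6 genes of sterol and isoprenoid synthesis and SREBP control in each library of the 4 groups (x axis). Points are libraries, triangles those numbered 4, and the line beside each group is the mean with its SD. *Ggps1* is lower and *Msmo1* and *Srebf1* are higher in all axonal libraries of a genotype, and the *Idi1* mean in +/+ axons follows 1 library at 462 CPM.

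Across the genotypes, 2 members were higher in both (*Msmo1* and *Srebf1*) and 7 were lower in both (*Ggps1*, *Scap* and the 5 fatty acid genes). These are 6.9% and 24.1% of the 29, against 25% of 19964 genes higher and 23.1% lower in both, so the share lower in both is near that of all genes. *Acat2* and *Mvd* passed in +/+ alone, *Hmgcs1* and *Pmvk* in *Hnrnpr*-/- alone, and 16 passed in neither. The log2 fold changes of the 29 members in the 2 genotypes, which come from separate libraries, correlated with Pearson's r 0.951 and Spearman's rho 0.941, and those of all 19964 genes with 0.917 and 0.929. The correlation is across genes, which are not independent replicates.

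Exon length moved with the compartment over all genes. Of genes with at least 6000 bases of exon, 43.1% were lower in +/+ and 44.9% in *Hnrnpr*-/- axons, and of those under 2000 bases 10.5% and 9.11%. Of the 6 members of at least 6000 bases, *Fasn*, *Acly*, *Acaca* and *Ggps1* were lower in both genotypes, whereas *Fdft1* and *Lss* were not called. Over the 29 members, the log2 fold change and length had Spearman's rho -0.453 in +/+ and -0.503 in *Hnrnpr*-/- motoneurons, as a description. The part of length, and of the marker levels given above, in these differences was not tested.

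Further genes of the same pathways were counted by list, to be read against the 25% of all genes higher and 23.1% lower in both genotypes. Of 10 further genes of SREBP processing and turnover, 1 was higher and 2 lower in both genotypes. These were *Ubxn1* (1.20 and 1.10), *Mbtps2*, a protease that releases SREBPs (-1.71 and -1.46), and *Rnf145* (-1.06 and -0.82). Of 18 genes of sterol uptake, efflux and storage, 3 were higher and 8 lower in both. *Gramd1b*, a sterol transfer protein (-1.95 and -1.73), and the exporter *Abcg1* (-1.60 and -1.62) were lower, and *Soat1*, which esterifies cholesterol, was higher (1.97 and 1.22).

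Among 19 other genes of fatty acid synthesis, elongation and desaturation, 4 were higher and 5 lower in both genotypes, so that these genes went both ways. *Elovl1*, an elongase of very long chains, was higher by 3.22 and 2.83, from 13.5 ± 3.55 to 128 ± 31.9 CPM in +/+ motoneurons (SD, n = 4). *Elovl4*, another elongase, was lower (-2.06 and -1.90), as was *Acsl4*, an acyl-CoA synthetase (-2.19 and -2.18). Of 12 genes that use isoprenoids, 1 was higher and 4 lower in both. *Fntb*, a farnesyltransferase subunit (-1.38 and -0.85), and the methyltransferase *Icmt* (-0.85 and -0.65) were lower, and the protease *Rce1* was higher (1.22 and 1.45). These lists were chosen with results of the same libraries known and are no independent evidence of direction.

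The second question was whether loss of hnRNP R changes the members. None of the 29 passed the adjusted threshold in the somatodendritic compartment, where 0.00557% of 17961 genes did, or in the axonal compartment, where 0.00528% of 18957 genes did. In edgeR the 1 gene that passed in each compartment was *Hnrnpr* itself, with log2 fold changes of -7.87 (adjusted p 6.6e-08) and -7.93 (adjusted p 0.0039). No member had an unadjusted p under 0.05 in either compartment in edgeR without a block, where 471 of 17961 and 137 of 18957 genes did. With the replicate number as a block, 1 member, *Lss*, did in the somatodendritic compartment (adjusted p 0.983 in edgeR), among 548 genes in all. After adjustment, DESeq2 and limma's voom called none. No member was without overlap between the genotypes, against 1.48% of genes in the somatodendritic and 0.591% in the axonal compartment. The log2 fold changes ran from -0.34 (*Lss*) to 0.28 (*Srebf1*) in the somatodendritic and from -0.57 (*Idi1*) to 0.28 (*Scap*) in the axonal compartment. The precision that 4 libraries per group gave differed between members. In the somatodendritic compartment the 95% interval was narrowest for *Nsdhl*, -0.33 to 0.10, and widest for *Fasn*, -1.09 to 0.45. In axons it was narrowest for *Srebf1*, -0.14 to 0.57, and widest for *Idi1*, -1.54 to 0.40. The median half-width over the 29 was 0.31 and 0.54.

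**Figure D4:**
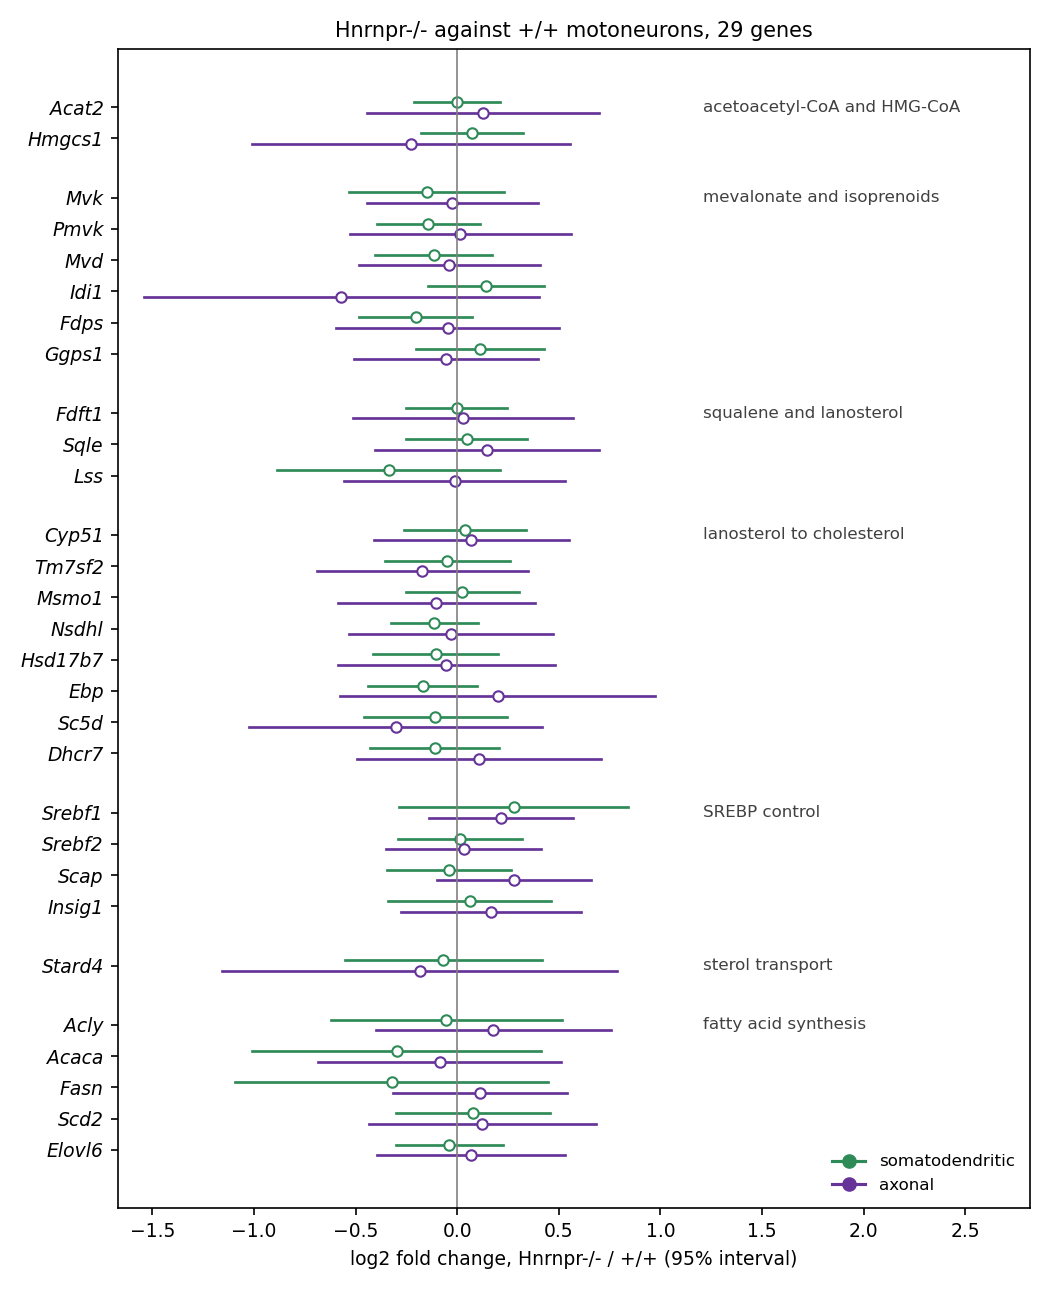
Log2 fold change of each of the 29 genes between *Hnrnpr*-/- and +/+ libraries (x axis), by step of the pathway (y axis), in the somatodendritic and axonal compartments, with 4 libraries per group. Lines are 95% intervals. Every interval crosses 0, and no point is filled since none has an adjusted p under 0.05.

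For *Fasn*, the levels in somatodendritic libraries were 1313 ± 367 CPM in +/+ and 1051 ± 619 in *Hnrnpr*-/- motoneurons (SD, n = 4), and the log2 fold change was -0.32 (95% interval -1.09 to 0.45). *Hnrnpr*-/- replicate 1 stood highest, at 1954 CPM. Without this library, *Fasn* had -0.80 (adjusted p 0.196) and *Acaca* -0.79 (adjusted p 0.137) in edgeR, neither past the threshold, and 5 of 29 members had an unadjusted p under 0.05 (*Lss*, *Hsd17b7*, *Stard4*, *Acaca* and *Fasn*), against 2291 of all 18263 genes in the same fit. In axons, *Fasn* had 0.11 (95% interval -0.32 to 0.54) and *Acaca* -0.09 (95% interval -0.69 to 0.51). *Idi1* had -0.57 in axons (95% interval -1.54 to 0.40) and 0.09 without +/+ replicate 2.

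Whether the genotype effect differed between somatodendritic and axonal libraries was tested as an interaction, which passed the threshold for 0 members and for 0% of 19964 genes in edgeR, where 265 genes and 0 members had an unadjusted p under 0.05. DESeq2 with default settings called 1 gene, no member, and DESeq2 with shrinkage and limma's voom called 0. The differences of the members ran from -0.69 (*Idi1*) to 0.46 (*Fasn*). The largest for a regulator was that of *Scap*, 0.34 (95% interval -0.11 to 0.79).

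Replicate 4 was the lowest library of its group for 16 of 29 members in +/+ somatodendritic, 18 in *Hnrnpr*-/- somatodendritic, 16 in +/+ axonal and 22 in *Hnrnpr*-/- axonal libraries. Over all genes the corresponding shares were 30.2%, 23.6%, 23.1% and 21.6%. *Hnrnpr*-/- axonal replicate 4 was below its group mean for 29 of 29 members, with a median deviation of -0.38 on the log2 scale, and for 54.5% of all genes. *Hnrnpr*-/- somatodendritic replicate 1 was the highest library for 22 of 29 members, all 5 fatty acid genes among them, and for 32% of all genes. In the same library the neuronal markers summed to 7575 CPM, the highest of the 16 libraries. *Hnrnpr*-/- somatodendritic replicate 4 had the lowest neuronal sum of the somatodendritic libraries, 4594 CPM, and the highest sum of astrocyte and radial glia markers among them, 2693 CPM. The summed CPM of 6 fibroblast and meningeal markers was highest in replicate 4 of every group, at 401 in +/+ and 1232 in *Hnrnpr*-/- somatodendritic and at 2000.3 in +/+ and 1754 in *Hnrnpr*-/- axonal libraries, against 60.2 to 399, 99.1 to 1087, 126 to 784 and 190 to 810 in the other replicates. The 6 microglia markers summed highest in replicate 4 of both *Hnrnpr*-/- groups, at 83.1 CPM in the somatodendritic and 199 CPM in the axonal library, and not in the +/+ groups, where replicate 4 had 7.70 and 47.8 CPM. The part of these marker levels was not tested. The members share these libraries, so their deviations are not independent.

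**Figure D5:**
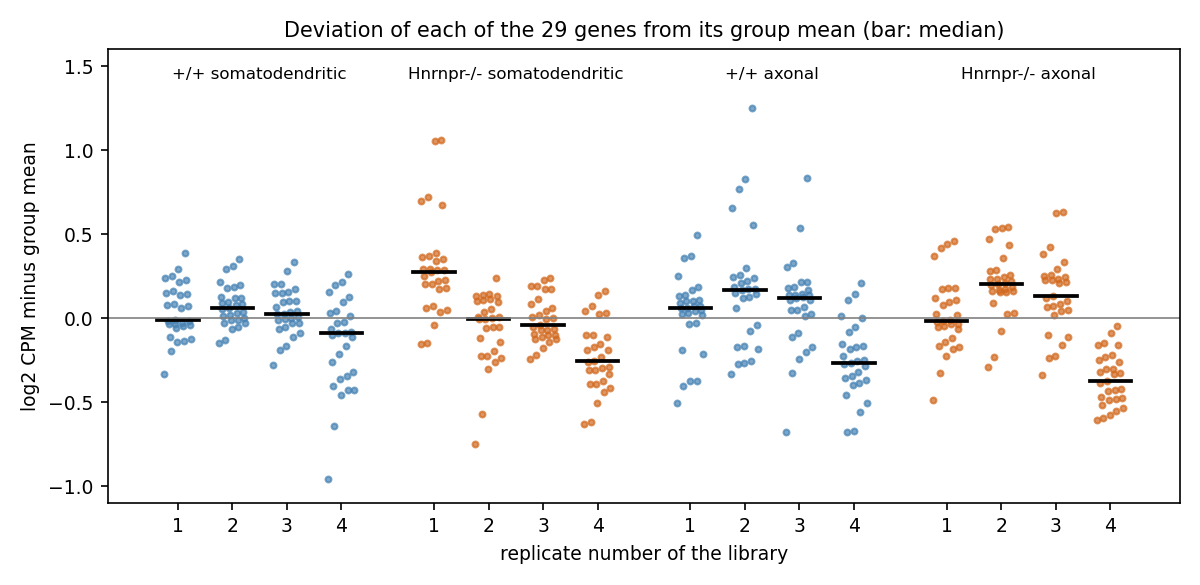
Deviation of log2 CPM from the group mean (y axis) for each of the 29 genes in each library (x axis, by group and replicate number). Bars are medians over the genes. The medians of the 4 libraries numbered 4 are -0.09, -0.26, -0.27 and -0.38, the lowest of each group, and that of *Hnrnpr*-/- somatodendritic replicate 1 is 0.27.

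Without the 4 libraries numbered 4, 5 members were higher and 8 lower in +/+ axons, and 4 higher and 5 lower in *Hnrnpr*-/- axons. The shares of all genes in the same fit were 27.1% higher and 22.7% lower in +/+, and 24.2% higher and 17.3% lower in *Hnrnpr*-/- axons. The fatty acid genes other than *Elovl6* kept their calls in both genotypes, and *Elovl6* kept its call in +/+ motoneurons and had an adjusted p of 0.0523 in *Hnrnpr*-/- motoneurons. Members called for the genotype numbered 0 in both compartments.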

How the data were processed

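RNA of somatodendritic and axonal compartments was sequenced by the authors from full-length cDNA made with a SMART-Seq kit and tagmented with Nextera XT. Reads were trimmed with Cutadapt, aligned with STAR (2.7.2b in the submitters' processing notes) to RefSeq GRCm39 and counted on exons with featureCounts (1.6.4) in the reverse-strand setting. The deposited values are expected counts: reads with several alignments or genes were counted as fractions by the authors, which left fractions for 26 of 29 members, and no normalization was applied.

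Counts were rounded and analysed in R 4.3.3 with edgeR 4.0.16 (filterByExpr, TMM, quasi-likelihood F-test, two-sided, Benjamini-Hochberg over all genes tested, threshold 0.05). Compartments and the interaction were fitted on 16 libraries with 4 group means, genotypes on the 8 libraries of a compartment. Genes tested numbered 19964, 17961 and 18957. SE is the log2 fold change divided by the square root of F. Common dispersion, the spread of counts beyond counting error, was 0.275 in axonal and 0.0499 in somatodendritic libraries, and 0.178 over all 16. The SEs and p values for compartments and the interaction rest on a dispersion shared by both compartments. Such a dispersion is too large for somatodendritic and too small for axonal libraries. limma 3.58.1 and DESeq2 1.42.0 were alternatives. The fits were tested on simulated data. No 2 libraries were identical. Total counts of 22024636 to 34863923 set the precision, and 0 counts allow up to 3 counts, for counting error only.

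Same-numbered libraries of a genotype deviated together (r over genes 0.106 to 0.242 in +/+ and 0.174 to 0.508 in *Hnrnpr*-/- motoneurons), so the numbers pair the compartments of a genotype. The main fits between compartments left out this pairing, and the block of the number within each genotype includes it. Between genotypes r ran from -0.0458 to 0.677. It was highest for number 3 (0.36 in somatodendritic and 0.677 in axonal libraries) and -0.0458 to 0.0263 for numbers 1 and 4. The paper states that compared conditions came from the same batch of cells. These values do not settle whether the numbers pair the genotypes. Of the members, 12 overlap another gene, 7 of them a gene on the other strand. For 7 members an overlapping gene had at least 100 counts on average: *Fdft1*, *Acaca*, *Srebf1*, *Mvd*, *Lss*, *Tm7sf2* and *Scd2*. *Tm7sf2* (mean count 1013) overlaps *Vps51* on its own strand (2380), and *Mvd* (3537) overlaps *LOC118567623* on the other strand (1063).

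Named genes were the 29 members, *Hnrnpr* and, of each pathway list, up to 3 genes with the largest log2 fold change called in the same direction in both genotypes. Results of 1 of these lists are not reported here. Motifs were searched on both strands in RefSeq promoters. Members and lists were chosen with earlier results of these data known.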

Additional observations from a re-analysis of the deposited data

Results flagged for a closer look

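A library stood apart from the other 3 of its group, by Dixon's test at the 95% level, in 10 of 116 groups of 4 (29 members in 4 groups), or 8.62%, and chance alone flags about 1 in 20. In +/+ somatodendritic libraries, *Acat2* had 512.1 CPM in replicate 2 against at most 460.5 in the others, and *Srebf1* had 46.06 CPM in replicate 4 against at least 108.6. In *Hnrnpr*-/- somatodendritic libraries, replicate 1 had 550.8 CPM of *Srebf2* against at most 399, and 160.1 CPM of *Elovl6* against at most 126.5. In +/+ axonal libraries, replicate 2 had 462 CPM of *Idi1* against at most 172.3 and 357.5 CPM of *Sc5d* against at most 189.2, and replicate 3 had 62.16 CPM of *Ebp* against at most 30.07. In *Hnrnpr*-/- axonal libraries, replicate 3 had 423.5 CPM of *Msmo1* against at most 300.3 and 64.75 CPM of *Ebp* against at most 38.5, and replicate 4 had 267.4 CPM of *Fdft1* against at least 437.6. *Ebp* was highest in replicate 3 of both axonal groups.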

How the results depend on the processing

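No result changed sign where it was called. Calls of *Fasn*, *Acly*, *Acaca*, *Scd2*, *Ggps1* and *Msmo1* between compartments held in both genotypes under every alternative run. Members higher in +/+ axons, 2 in edgeR with TMM, numbered 5 with library totals, 4 with a minimum of 10 counts throughout a group, 1 with limma's voom, 5 without the libraries numbered 4 and 2 to 5 with single libraries left out. In *Hnrnpr*-/- axons they numbered 5 with library totals and 5 with at least 10 counts against 3. Members lower in *Hnrnpr*-/- axons numbered 5 without the libraries numbered 4 and 5 to 9 with single libraries left out, with 5 without somatodendritic replicate 1, and all genes lower there numbered 3461 without the libraries numbered 4. Library totals moved the median of all genes from 0.07 to 0.22 in +/+ and from 0.00 to 0.12 in *Hnrnpr*-/- motoneurons. For the genotype, all genes higher numbered 1 with DESeq2 by default in the somatodendritic compartment and 1 in axons with all 16 libraries in the fit. Genes lower in axons numbered 0 without the libraries numbered 4 and 0 to 1 with single libraries left out, with 0 without *Hnrnpr*-/- replicate 2. Where the number was 0, the deleted gene *Hnrnpr* itself was not called. For the interaction, 1 gene was higher with DESeq2 by default. The causes of these shifts were not tested.

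With the replicate number as a block, 1 level per number across all groups, members numbered 2 higher and 10 lower in +/+ and 4 higher and 10 lower in *Hnrnpr*-/- axons (all genes 29.7% and 29.1%, and 28.2% and 28.9%). *Hmgcs1* was gained in +/+ (adjusted p 0.0107), and *Acat2* (0.0236), *Mvd* (0.0229) and *Ebp* (0.0487) in *Hnrnpr*-/- motoneurons. With the number within each genotype as a block, 8 levels in all, they numbered 2 and 10, and 3 and 7 (all genes 28% and 28.3%, and 26.5% and 27.9%). The number block called no member for the genotype or the interaction. The block within genotypes was fitted for the compartments and the interaction alone and called no member for the interaction. The block within genotypes and the fit without the libraries numbered 4 were chosen after seeing the data.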
